A study of Mus musculus with 12 samples.

Results

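The mitochondrial genome of the mouse codes for 37 RNAs, and all 37 were present among the 47729 genes of the deposited count matrix, picked out by a symbol that starts with mt-. They comprise 13 mRNAs, 2 rRNAs and 22 tRNAs. Their levels were read in 12 libraries of polyA RNA from peritoneal macrophages of C57BL/6 mice, in 4 groups of 3. IL4c cells came from mice given 2 injections of IL-4 complex, made of 5 ug of IL-4 and 25 ug of an antibody to it, with collection 2 days after the last one. TG cells came from mice given 1 injection of 3% thioglycollate, an irritant broth that draws monocytes into the peritoneum, 4 days before collection. Cells that adhered within 2 h were cultured for 24 h with SPARC, a secreted matrix-binding protein, at 20 ug/ml, or without it. The groups were thus IL4c with SPARC, IL4c untreated, TG with SPARC and TG untreated. No control protein is named in the labels, nor are separate mice for the replicates, so a p-value here reflects only how these wells varied, which may be technical.

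The mitochondrial genome is a small circle that is read from both strands into long precursors by its own RNA polymerase, Polrmt, with the factors Tfam and Tfb2m. The tRNAs punctuate the precursors and are cut out, which frees the mRNAs and rRNAs between them. Mtpap then adds poly(A) tails to most mRNAs, the Lrpprc and Slirp proteins hold mRNAs and protect them, and Supv3l1 with Pnpt1 degrades them; the rRNAs carry short tails. The mRNAs encode core subunits of respiratory complexes I, III and IV and of ATP synthase (complex V), which are assembled with nuclear-encoded partners. In macrophages the respiratory chain is known for its part in the metabolic differences between inflammatory and IL-4-driven states.

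Tails matter to what could be seen here in 2 ways, since the libraries hold RNA chosen by its tail and since tails complete some of the messages. An annotated mRNA end is shown for 3 genes whose last codon is a lone T, which needs A bases from the tail to become a stop codon, beside mt-Co1, which carries a whole stop codon, and mt-Nd6, the single mRNA of the minus strand. The sequences are GENCODE M21 transcripts on GRCm38, read 5′ to 3′, and capitals mark the stop letters.
mt-Co3, chrM:9361-9390, plus strand: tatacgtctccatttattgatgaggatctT
mt-Nd4, chrM:11515-11544, plus strand: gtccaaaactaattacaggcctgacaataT
mt-Cytb, chrM:15259-15288, plus strand: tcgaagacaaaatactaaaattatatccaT
mt-Co1, chrM:6843-6872, plus strand: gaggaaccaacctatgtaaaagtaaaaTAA
mt-Nd6, chrM:13552-13581, minus strand: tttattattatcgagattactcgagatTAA

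Abundance and capture by the tail cannot be told apart in such libraries. Nor can fewer mitochondria per cell be told apart from fewer transcripts per mitochondrion or, in bulk RNA, a loss of some cells from less RNA per cell.

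A nuclear insertion of mitochondrial DNA on chromosome 1 carries near-identical copies of several members, and the authors' counting divided reads between them. The copies Gm28661 of mt-Co2, Gm10925 of mt-Atp6, Gm28437 of mt-Co3 and Gm10222 of mt-Nd4l, and Gm28439, which matches part of mt-Nd4, were 100% identical to their member over the aligned bases. Gm29216 on chr1:24615706-24616197 matches the last 483 bases of mt-Co1 with 1 difference, A1066T, counted from the first base of mt-Co1. The pair of windows below is shown because that base is the one difference over the aligned bases; the capital marks it.
mt-Co1, chrM:6390-6419, plus strand: ggaAttgttttatccaactcatcccttgac
Gm29216, chr1:24616159-24616188, minus strand: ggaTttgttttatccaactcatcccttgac

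The row of mt-Co2 itself held between 0 and 1525 counts per library, while its copy Gm28661 held 11466 to 107024. Copies took 97.9% to 100% of the counts of mt-Co2, 86.9% to 95.5% of those of mt-Atp6 and 66.6% to 99.7% of those of mt-Co3. For mt-Nd4l the share was 0% to 53.7%, for mt-Co1 4.5% to 17.9% and for mt-Nd4 0% to 6.8%. The division varied between libraries of 1 group. In IL4c the share of mt-Co1 under copies also differed with SPARC, at 12.3% to 17.9% against 7.5% to 9.2% untreated. Levels of these 6 genes therefore include the counts of 8 copies unless called deposited, and fits are given for the deposited rows and with the copies added. The other copies used were Gm13341 of mt-Co2 and Gm13340 of mt-Co1 on chromosome 2, which held at most 4.26 CPM in any library. Cep295 on chromosome 9 matched mt-Tl1 over 59 bases and was not added. Transcription of the copies themselves cannot be told apart from that of the members where the sequences are identical.

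**Figure D1:**
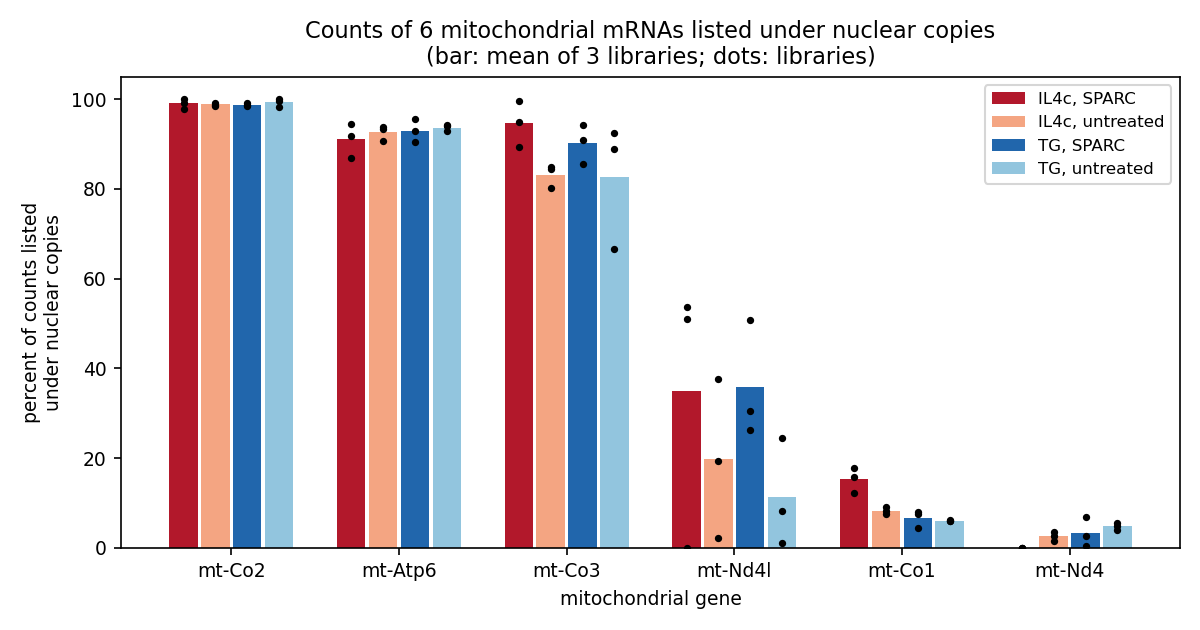
Percent of the counts of 6 mitochondrial mRNAs that the deposited matrix lists under nuclear copies. Bars are means of 3 libraries and dots are libraries, by group; nearly all counts of mt-Co2 and most of those of mt-Atp6 and mt-Co3 stand under a copy, against at most 6.8% for mt-Nd4.

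Libraries held 31501941 to 42288785 estimated counts, and 15232 genes had enough of them to be tested. Levels are CPM, counts scaled to a common total, on library sizes scaled by TMM, which balances the bulk of genes between libraries. The cells carried the macrophage markers: 10 of 10 were detected and summed to 12910 to 18798 CPM in IL4c with SPARC, 20580 to 27838 CPM in IL4c untreated, 30343 to 31087 CPM in TG with SPARC and 22105 to 34991 CPM in TG untreated. The pair of TG wells numbered 1 stood apart. Their 12 B cell markers summed to 1900 CPM with SPARC and 2459 CPM untreated, against 175 and 213 CPM with SPARC and 271 and 284 CPM untreated in the other TG wells. Replicate numbers are shared by SPARC and untreated wells of an injection, and within an injection wells of the same number deviated together, so differences are also given within the numbered pairs.

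As a whole, the 15 members with counts made up 0.522% to 1.09% of all counts in IL4c with SPARC and 1.62% to 2.42% in IL4c untreated, without overlap. In TG the share was 1.08% to 1.61% with SPARC and 1.42% to 2.38% untreated, and the groups overlapped. The 22 tRNAs, of 59 to 75 bases, were listed at 0 in all 12 libraries and were not tested. Of the 1023 genes in the matrix of at most 75 bases, 1 had any count, so nothing can be read from these zeros about the level of the tRNAs. Deposited counts of the other 15 members were above 0 in every library except those of mt-Co2, which were above 0 in 10.

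In IL4c macrophages 11 of the 13 mRNAs were lower with SPARC, the median over the 13 was −2.59 on the log2 scale, and neither rRNA passed in either direction (edgeR's quasi-likelihood test, Benjamini-Hochberg adjusted p under 0.05). Over all genes 12.7% were called lower and 15.1% higher; the median gene changed by −0.0014. With copies added 12 of 13 mRNAs were lower, against 12.5% of genes, and mt-Co2 was the one gained. Every SPARC library lay below every untreated library for 12 of the 13 mRNAs, which held for 24.8% of all genes; the exception was mt-Nd6. All 13 were lower in each of the 3 numbered pairs, as were 36.3% of all genes. With the number as a block the count was 12, against 22.4% of genes, and mt-Nd6 was added.

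The plot of levels by library shows these values for each gene.

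**Figure D2:**
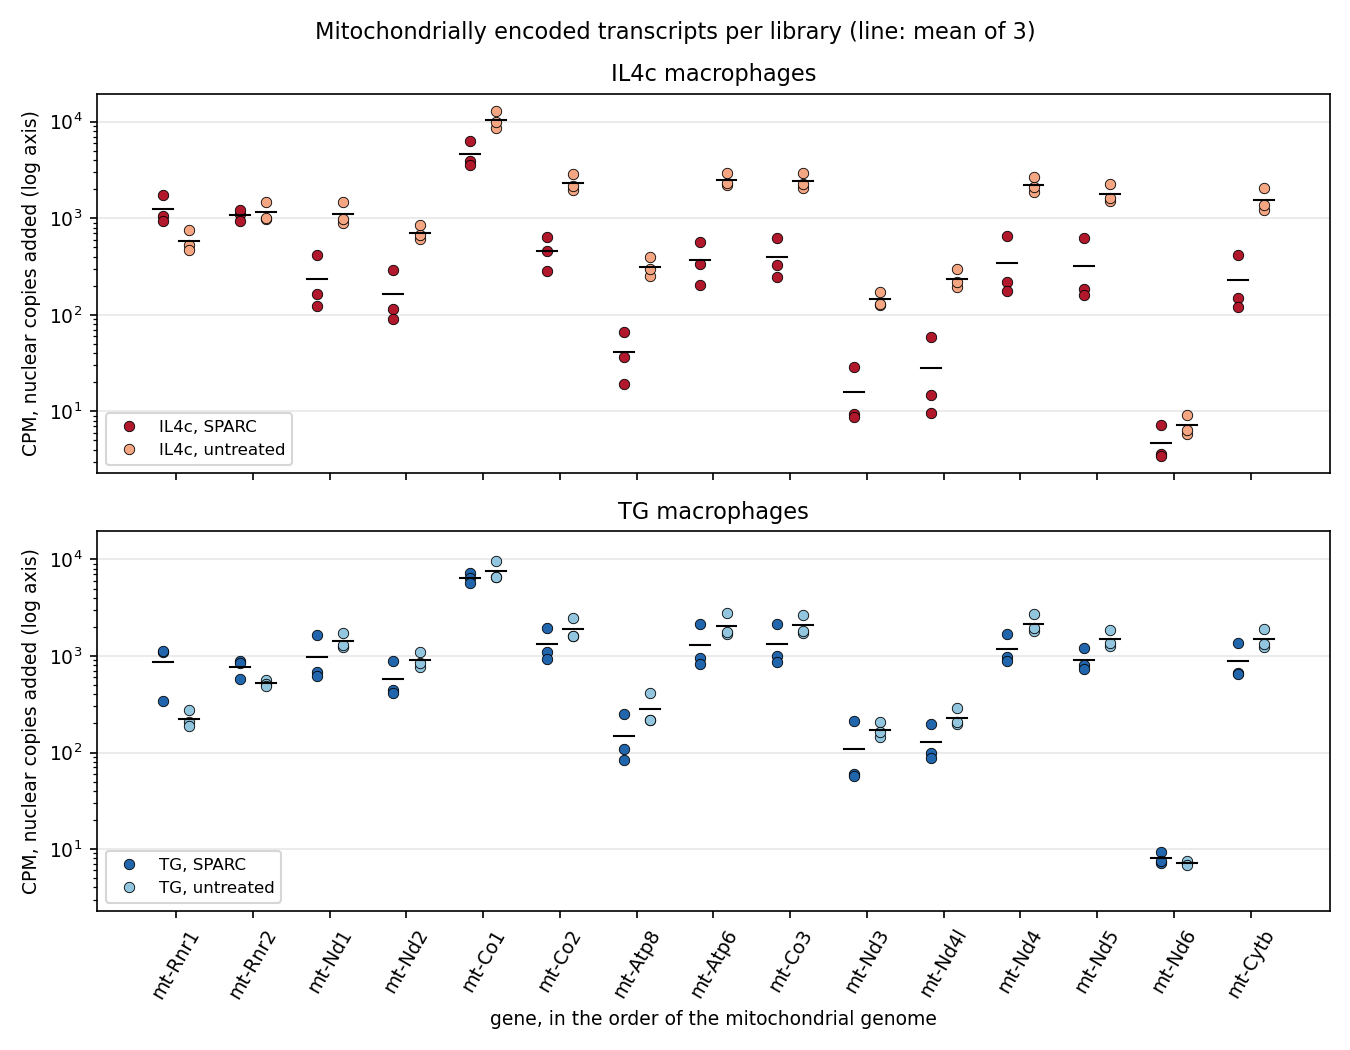
CPM with nuclear copies added (log axis) of the 15 members with counts, in the order of the mitochondrial genome, for IL4c (top) and TG (bottom). Dots are libraries and black lines are means of 3. In IL4c every mRNA except mt-Nd6 has its 3 SPARC libraries below its 3 untreated ones, and mt-Rnr1 has them above.

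The rRNAs were the members that did not follow the mRNAs. mt-Rnr1, the RNA of the small mitochondrial ribosomal subunit (chrM:70-1024, 955 bases), had 1054, 921 and 1717 CPM in IL4c with SPARC, against 526, 469 and 754 CPM in IL4c untreated. All SPARC libraries were above all untreated ones, but the fitted rise of 1.08 ± 0.42 (SE, log2) had an adjusted p of 0.085. In TG it had 347, 1102 and 1127 CPM with SPARC and 283, 208 and 187 CPM untreated, and it rose by 1.93 ± 0.43 (adjusted p = 0.021, edgeR), a level 3.80-fold higher. The rise sat in the pairs numbered 2 and 3, at 2.41 and 2.59 on the log2 scale, and was 0.31 in the pair numbered 1. Over all genes 6.73% rose and 4.52% fell in TG.

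The TG call for mt-Rnr1 was lost when any 1 of the TG wells numbered 2 or 3 was left out, and when the TG groups were fitted alone; its log2 value stayed between 1.72 and 2.35 over the 12 fits with a library left out. Without both TG wells numbered 1 it rose by 2.52 ± 0.32 (adjusted p = 0.0017), and in that fit the IL4c value of 1.08 ± 0.25 passed too (adjusted p = 0.0086, edgeR). In that pair the B cell markers were the highest of the TG wells, as given above, and the mesothelial and stromal markers were lower, at 30.9 CPM with SPARC and 6.6 CPM untreated, against 201 and 229 CPM with SPARC and 131 and 151 CPM untreated in the other TG wells; their part in the result was not tested.

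mt-Rnr2, the RNA of the large subunit (chrM:1094-2675, 1582 bases), lies directly downstream with a tRNA gene between. It had 1087, 925 and 1206 CPM in IL4c with SPARC, against 980.3, 1007 and 1453 CPM in IL4c untreated. The groups overlapped, and the change of −0.10 ± 0.20 had an adjusted p of 0.76 (edgeR). In TG it had 589, 875 and 837 CPM with SPARC and 571, 518 and 492 CPM untreated. These groups did not overlap, and the difference of 0.54 ± 0.20 had an adjusted p of 0.11. With the block in TG it rose by 0.52 ± 0.16 (adjusted p = 0.047), one of 2 members higher there against 14.3% of genes, and without both TG wells numbered 1 by 0.78 ± 0.20 (adjusted p = 0.032).

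The count of mt-Rnr1 per count of mt-Rnr2 was 0.970, 0.996 and 1.42 in IL4c with SPARC, against 0.536, 0.466 and 0.519 in IL4c untreated. In TG it was 0.589, 1.26 and 1.35 with SPARC and 0.495, 0.401 and 0.380 untreated. Both injections thus had every SPARC library above every untreated one, a ratio free of library size. The rRNAs together came to 36.5, 37.4 and 27.5 counts per 100 mRNA counts (copies added) in IL4c with SPARC and 7.00, 6.18 and 6.96 in IL4c untreated. In TG they came to 4.39, 14.9 and 16.6 per 100 with SPARC and 2.99, 3.92 and 3.55 untreated, with the pair numbered 1 again the closest.

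**Figure D3:**
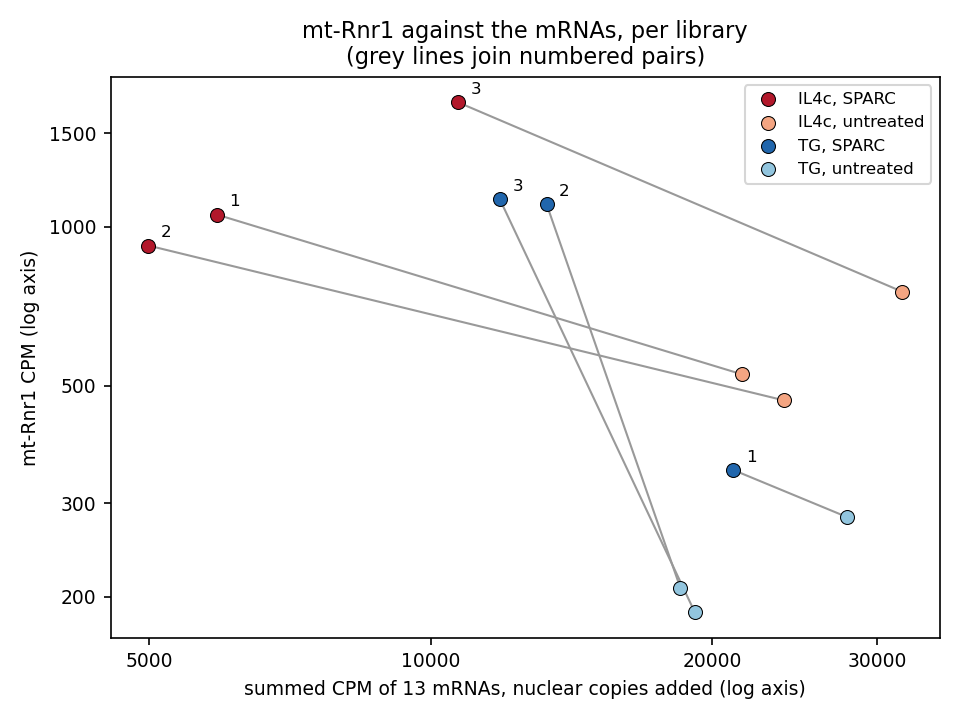
mt-Rnr1 CPM against the summed CPM of the 13 mRNAs with copies added, both on log axes; each dot is a library, grey lines join the SPARC and untreated wells of a numbered pair, and digits are the pair numbers. Every line runs down to the right, since the SPARC well had more mt-Rnr1 and less mRNA; the TG pair numbered 1 moved least.

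Nuclear RNAs listed as ending without a poly(A) tail, histone genes among them, gave no call in the fit without the block. Whether their transcripts lacked tails in these cells was not tested. Rn7sk held 0.86 to 2.82 CPM and Rmrp at most 0.985 CPM in any library, so the sums below rest mostly on other listed genes. Of 16 such genes, 6 were tested and 1 (Rny3) was at 0 in every library. With edgeR 0 passed in either SPARC comparison, where 27.8% and 11.3% of all genes did in IL4c and TG. With the block 2 were lower in TG, where 13.1% of all genes were. The median fitted value of the 6 without the block was −0.20 in IL4c and −0.92 in TG on the log2 scale. The sum of the 16 was 148 to 178 CPM in IL4c with SPARC against 150 to 155 CPM in IL4c untreated. In TG it was 41.6, 80.0 and 80.5 CPM with SPARC and 37.0, 139 and 139 CPM untreated. It was thus lower with SPARC in the TG pairs numbered 2 and 3 and higher in the pair numbered 1. Gm42418, a gene that overlaps a nuclear rRNA repeat and was added after the data were seen, had 1536 to 2365 CPM in IL4c with SPARC and 1032 to 4285 CPM in IL4c untreated, a change of −0.29 ± 0.44 (adjusted p = 0.66). In TG its change was 0.18 ± 0.44 (adjusted p = 0.85).

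Complex I, the NADH dehydrogenase that starts the chain, takes 7 of the mRNAs. Their summed level with copies added was 708, 569 and 2072 CPM in IL4c with SPARC and 5193, 5679 and 7713 CPM in IL4c untreated. The pairs differed by −2.87, −3.32 and −1.90 on the log2 scale. In TG the sum was 5861, 3069 and 2805 CPM with SPARC and 7908, 5396 and 5862 CPM untreated, with pair differences of −0.43, −0.81 and −1.06. The IL4c groups were far apart, while in TG the SPARC well numbered 1 lay among the untreated ones.

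Of its subunits, mt-Nd3, a small membrane subunit, had 9.2, 8.7 and 28.9 CPM in IL4c with SPARC and 128, 130 and 173 CPM in IL4c untreated, a change of −3.2 ± 0.62 on the log2 scale (adjusted p = 0.0046, edgeR). mt-Nd4 and mt-Nd4l, which overlap by a few bases and share a bicistronic message, both fell. mt-Nd4, with its copy added, had 218, 175 and 648 CPM with SPARC and 1851, 2080 and 2683 CPM untreated, and fell by 2.67 ± 0.49 (adjusted p = 0.0035), against −2.63 ± 0.49 as deposited (adjusted p = 0.0037). mt-Nd4l, with its copy added, had 14.6, 9.7 and 59.0 CPM with SPARC and 192, 221 and 295 CPM untreated, and fell by 3.09 ± 0.64 (adjusted p = 0.0061), against −2.98 ± 0.86 as deposited (adjusted p = 0.028), a call that held in 7 of the 12 fits with a library left out. In each of these genes the SPARC library numbered 3 was the highest of its group.

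mt-Nd1 and mt-Nd2 lie nearest to the rRNAs. mt-Nd1 had 164, 122 and 411 CPM in IL4c with SPARC and 884, 972 and 1446 CPM in IL4c untreated, a change of −2.24 ± 0.52 (adjusted p = 0.011, edgeR). mt-Nd2, a membrane subunit, had 114, 89.4 and 287 CPM with SPARC and 606, 667 and 846 CPM untreated, and fell by 2.11 ± 0.46 (adjusted p = 0.0076). mt-Nd5, one of the subunits that resemble ion antiporters, had 182, 156 and 623 CPM with SPARC and 1524, 1605 and 2228 CPM untreated, and fell by 2.48 ± 0.51 (adjusted p = 0.0059). The IL4c calls of mt-Nd1, mt-Nd2, mt-Nd3, mt-Nd4 and mt-Nd5 held in all 12 fits that left out a library.

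mt-Nd6 is the mRNA of the other strand and, in human cells, has been described as lacking a poly(A) tail. It was the scarcest member with counts, at 136 to 341 counts per library. It had 3.6, 3.4 and 7.2 CPM in IL4c with SPARC and 5.8, 6.5 and 9.1 CPM in IL4c untreated, so the groups overlapped. The difference of −0.60 ± 0.28 had an adjusted p of 0.14 and, with the block, −0.65 ± 0.15 and 0.0102 (edgeR). In TG it had 9.4, 7.2 and 7.5 CPM with SPARC and 7.3, 7.6 and 6.8 CPM untreated. Per 1000 counts of mt-Nd5, which it overlaps on the opposite strand, it had 19.8, 21.8 and 11.5 counts in IL4c with SPARC and 3.81, 4.03 and 4.08 in IL4c untreated; whether the authors' counting used strand is not given in the sources used here.

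Complex III has mt-Cytb, cytochrome b, as its 1 mitochondrial subunit. It had 148, 118 and 410 CPM in IL4c with SPARC, against 1218, 1365 and 2026 CPM in IL4c untreated. It fell by 2.77 ± 0.51 (adjusted p = 0.0037, edgeR), and the pairs gave −3.03, −3.51 and −2.31. In TG it had 1372 CPM in the SPARC well numbered 1 and 665 and 649 CPM in the others, against 1972, 1246 and 1323 CPM untreated. The SPARC well numbered 1 was above both of the lower untreated wells.

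Complex IV, cytochrome c oxidase, holds mt-Co1, mt-Co2 and mt-Co3, its catalytic core. mt-Co1 was the most abundant member in every group per length, at 2969 ± 977 CPM per kb in IL4c with SPARC and 6787 ± 1453 CPM per kb in IL4c untreated (SD, n = 3 each, copies added). As deposited it had 3258, 2882 and 5512 CPM with SPARC and 7808, 9072 and 11911 CPM untreated. It fell by 1.30 ± 0.30 (adjusted p = 0.011, edgeR), the smallest fall of the 11 called, though the order of the fitted values was not tested. mt-Co2 with its copies added had 453, 286 and 646 CPM with SPARC and 1976, 2144 and 2870 CPM untreated. It fell by 2.33 ± 0.38 (adjusted p = 0.0017), while its deposited row of at most 40.6 CPM gave −2.58 ± 1.55 (adjusted p = 0.25). mt-Co3 with its copy had 331, 243 and 620 CPM with SPARC and 2068, 2236 and 2954 CPM untreated, and fell by 2.60 ± 0.44 (adjusted p = 0.0022). Its deposited row gave −3.85 ± 1.28 (adjusted p = 0.048) and passed in 2 of the 12 fits with a library left out.

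mt-Co1 therefore took a larger share of the mRNA counts with SPARC. With copies added it made up 65.9%, 71.1% and 59.1% of them in IL4c with SPARC, against 40.0%, 41.3% and 40.7% in IL4c untreated. In TG the share was 34.8%, 48.3% and 47.9% with SPARC and 34.8%, 35.7% and 34.4% untreated. The pair numbered 1 did not differ, and pairs 2 and 3 did in the direction of IL4c.

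The copy of the last part of mt-Co1, Gm29216, was not called. It had 611, 626 and 768 CPM in IL4c with SPARC and 789, 809 and 966 CPM in IL4c untreated, a change of −0.35 ± 0.20 (adjusted p = 0.22, edgeR). Of the other 3 abundant copies, which hold most counts of their members and so give no separate value, Gm28661 fell by 2.34 ± 0.38 (adjusted p = 0.0018), Gm10925 fell by 2.79 ± 0.48 (adjusted p = 0.0026) and Gm28437 fell by 2.45 ± 0.40 (adjusted p = 0.0020). Gm28439 had 0 counts in every IL4c library with SPARC and 1081 to 3620 counts untreated (adjusted p = 0.0032, edgeR). Gm13341 fell by 2.54 ± 0.54 (adjusted p = 0.0067), while Gm10222 (adjusted p = 0.11) and Gm13340 (adjusted p = 0.053) did not pass. The 1 base that sets Gm29216 apart from mt-Co1 over the aligned bases is shown above. Gm28661, Gm10925 and Gm28437 have no such difference from their members over the aligned bases.

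Complex V, ATP synthase, has mt-Atp8 and mt-Atp6, which overlap in 1 bicistronic message. mt-Atp8 had 36.6, 19.1 and 66.3 CPM in IL4c with SPARC and 254, 296 and 390.2 CPM in IL4c untreated. It fell by 2.95 ± 0.55 (adjusted p = 0.0038, edgeR). mt-Atp6 with its copy had 336, 203 and 562 CPM with SPARC and 2214, 2291 and 2968 CPM untreated, a change of −2.76 ± 0.46 (adjusted p = 0.0022), against −2.59 ± 0.49 as deposited (adjusted p = 0.0043). For both genes of the message the groups did not overlap.

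Per complex, in IL4c the share of the mRNA counts was higher for complex IV and lower for I, III and V with SPARC. Complex IV held 79.2%, 81.7% and 70.9% in IL4c with SPARC, against 58.8%, 59.7% and 58.9% in IL4c untreated. In TG it held 54.3%, 64.0% and 63.1% with SPARC, against 53.3%, 53.8% and 52.2% untreated, so the pair numbered 1 was nearly level. In IL4c the complex IV sum without mt-Co1, of 784, 530 and 1266 CPM with SPARC against 4044, 4380 and 5824 CPM untreated, gave pair differences of −2.37, −3.05 and −2.20. These lay near the −2.73, −3.54 and −2.42 of complex V and the −3.03, −3.51 and −2.31 of complex III. Leaving out mt-Co1 thus brought complex IV near to the others.

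In TG the fitted values of the mRNAs were nearer to 0. No mRNA passed in the edgeR fit, and none had an unadjusted p under 0.05; the median over the 13 was −0.65 on the log2 scale, against −0.033 over all genes. SPARC was below untreated in all 3 numbered pairs for 10 of 13 mRNAs as deposited and 11 with copies added, which held for 30.7% of all genes. The pairs' median differences with copies added were −0.36, −0.82 and −1.04. Every SPARC library lay below every untreated library for 3 of the 13 mRNAs, mt-Nd4, mt-Nd4l and mt-Nd5. The share of all genes for which this held in TG is not given here. mt-Nd4, with its copy added, had 1676, 971 and 891 CPM with SPARC and 2692, 1800.5 and 1950 CPM untreated. mt-Atp8 had 256, 109 and 84.4 CPM with SPARC and 423, 218 and 217 CPM untreated, and the SPARC well numbered 1 lay among the untreated ones. mt-Co1, with its copies added, had 7318, 6420 and 5684 CPM with SPARC and 9716, 6592 and 6594 CPM untreated, also with overlap. With the number as a block 3 mRNAs passed as lower, against 13.1% of genes: mt-Atp8 at −1.03 ± 0.27 (adjusted p = 0.033), mt-Cytb at −0.82 ± 0.22 (adjusted p = 0.033) and mt-Nd4 at −0.89 ± 0.27 (adjusted p = 0.049). With copies added as well, the count was 6 against 12.8% of genes, and the additions were mt-Atp6, mt-Co2 and mt-Co3. mt-Rnr1 rose by 1.8 ± 0.45 with the block (adjusted p = 0.031).

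**Figure D4:**
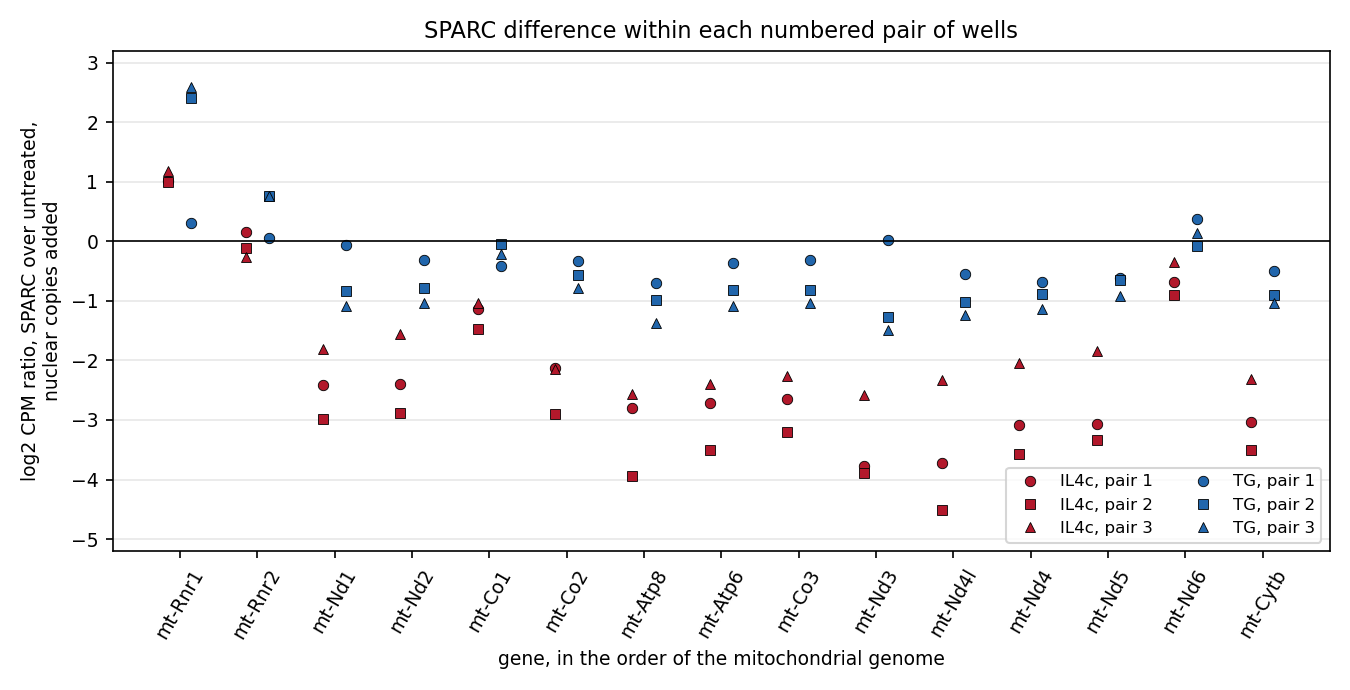
Log2 ratio of CPM, SPARC over untreated, in each numbered pair, with nuclear copies added, for the 15 members in genome order; red marks are IL4c and blue marks TG, and shapes are pair numbers. In IL4c all mRNAs are below 0 in all 3 pairs, with mt-Co1 and mt-Nd6 nearest to 0; mt-Rnr1 is above 0 in all 6 pairs.

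The difference between the injections in their SPARC response was tested as an interaction. In the edgeR fit no gene of 15232 passed, 0% of those tested, with 1612 at an unadjusted p under 0.05. By DESeq2 2 members passed. The share of all genes that passed by DESeq2 is not given here, so that count cannot be set beside it. The fitted differences of the 13 mRNAs, IL4c minus TG, ran from −3.11 to −0.75, and 9 had an unadjusted p under 0.05. With the block 5 passed as more negative in IL4c, against 1.6% of genes: mt-Cytb by −2.14 ± 0.31 (adjusted p = 0.029), mt-Co1 by −1.11 ± 0.20 (adjusted p = 0.038), mt-Nd5 by −2.03 ± 0.38 (adjusted p = 0.046), mt-Nd4 by −1.99 ± 0.38 (adjusted p = 0.046) and mt-Atp8 by −2.06 ± 0.38 (adjusted p = 0.047). With copies added as well there were 8, against 1.7% of genes, with mt-Atp6, mt-Co2 and mt-Co3 joining. Neither rRNA passed in any of these edgeR fits.

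Between untreated IL4c and TG cells both rRNAs passed and no mRNA did. The fitted values of the 13 mRNAs ran from −0.38 to 1.20 on the log2 scale with a median of 0.022, or of 0.28 without both TG wells numbered 1. Shares within the mRNAs did not overlap: mt-Co1 made up 40.0% to 41.3% in IL4c untreated and 34.4% to 35.7% in TG untreated, and complex I 23.8% to 24.2% in IL4c untreated and 28.4% to 30.6% in TG untreated. With copies added the mRNAs summed to 21533, 23885 and 31911 CPM in IL4c untreated and 27879, 18486 and 19159 CPM in TG untreated, and the groups overlapped. Both rRNAs were higher in IL4c, where 10.2% of genes were: mt-Rnr1 by 1.37 ± 0.43 (adjusted p = 0.047, edgeR) and mt-Rnr2 by 1.12 ± 0.20 (adjusted p = 0.0059). The lowest IL4c library of mt-Rnr2, at 980.3 CPM, was above the highest TG library, at 571 CPM. The call for mt-Rnr1 held in 3 of the 12 fits with a library left out and was lost with the block (1.30 ± 0.42, adjusted p = 0.055, edgeR). That for mt-Rnr2 held in all of these. In this comparison the block joined same-numbered wells across the injections, a pairing that the labels do not give.

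With SPARC in both, IL4c cells had less of 7 mRNAs than TG cells, where 10.1% of genes were lower: mt-Nd1, mt-Nd2, mt-Nd3, mt-Nd4, mt-Cytb, mt-Atp6 and mt-Atp8. The largest of these differences was that of mt-Nd3, at −2.82 ± 0.61 (adjusted p = 0.011, edgeR). With copies added it was 10 mRNAs, against 9.42% of genes, with mt-Co2, mt-Co3 and mt-Nd4l added. These calls rested on single libraries: 7 fell to 1 without the IL4c SPARC well numbered 1 or that numbered 2, to 4 without the TG SPARC well numbered 1, and to 0 when the groups were fitted alone, while 11 passed without the IL4c SPARC well numbered 3. The comparisons described here share their groups of libraries pairwise and are not independent of each other.

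Per length, the first 4 members stood in the same order in untreated cells of both injections. With copies added mt-Co1 led, at 6787 ± 1453 CPM per kb in IL4c untreated and 4941 ± 1167 CPM per kb in TG untreated (SD, n = 3 each), followed by mt-Atp6, mt-Co2 and mt-Co3. Those 3 lay at 3086 to 3658 CPM per kb in IL4c untreated and 2644 to 3036 in TG untreated, within the SD of their neighbours in the order. mt-Nd6 was last in all 4 groups, at 9.2 ± 4.1 CPM per kb in IL4c with SPARC, 13.8 ± 3.4 in IL4c untreated, 15.4 ± 2.1 in TG with SPARC and 13.8 ± 0.8 in TG untreated. With SPARC mt-Rnr1 was 2nd in IL4c, where it was 13th untreated, and 6th in TG, where it was 14th untreated.

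Nuclear genes that serve mitochondrial expression passed in small numbers in the fit without the block. In IL4c they passed in both directions, except that no gene of tailing, stability and decay fell. Among 23 tested genes of mtDNA transcription and replication, 1 rose and 3 fell in IL4c, where 27.8% of all genes passed, and 0 passed in TG with edgeR, where 11.3% did. With the block 5 rose and 5 fell in IL4c, and 3 rose and 2 fell in TG, where that fit called 45.2% and 27.3% of all genes in IL4c and TG. Polrmt, the polymerase, had 12.8, 12.2 and 14.5 CPM in IL4c with SPARC and 11.9, 12.5 and 14.1 CPM in IL4c untreated (0.03 ± 0.13, adjusted p = 0.87). Tfam, which packages the DNA and starts transcription, changed by 0.22 ± 0.11 in IL4c (adjusted p = 0.15). Lonp1, the matrix protease known to degrade Tfam, rose in IL4c by 0.84 ± 0.12 (adjusted p = 0.00086), with 74.0, 56.7 and 73.6 CPM with SPARC and 37.7, 33.9 and 42.4 CPM untreated. Those that fell were Polg2, an accessory subunit of the DNA polymerase (−0.65 ± 0.21, adjusted p = 0.044), Mgme1, an exonuclease of replication (−0.43 ± 0.13, adjusted p = 0.032), and Tfb2m, which opens promoters (−0.42 ± 0.13, adjusted p = 0.038). In TG the smallest adjusted p-values by edgeR were those of Polg2 (0.0805), Mgme1 (0.103), Top1mt (0.127) and Primpol (0.129).

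Of 23 genes that cut and modify mitochondrial RNA, 3 rose and 1 fell in IL4c and none passed in TG, where 27.8% and 11.3% of all genes passed in IL4c and TG; with the block it was 4 and 2 in IL4c and 1 higher in TG, against 45.2% and 27.3% of all genes. The risers were the pseudouridine synthase genes Trub2 (0.55 ± 0.10, adjusted p = 0.0027, edgeR) and Rpusd3 (0.92 ± 0.27, adjusted p = 0.030) and the methyltransferase Nsun2 (0.42 ± 0.13, adjusted p = 0.037). Ftsj2, now called Mrm2, a methyltransferase of the large-subunit rRNA, fell by 0.73 ± 0.17 (adjusted p = 0.011). In TG the smallest adjusted p-values by edgeR were 0.11 for Rpusd3, 0.266 for Nsun3, 0.269 for Trub2 and 0.294 for Hsd17b10.

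Of 20 genes of tailing, stability and decay, 5 rose in IL4c and 3 in TG, and none fell. Of all genes 15.1% rose and 12.7% fell in IL4c, and 6.73% rose and 4.52% fell in TG. With the block 5 rose in IL4c and 4 in TG, against 22.8% and 14.3% of all genes, and none fell. Slirp, the partner of Lrpprc, had 14.3, 19.4 and 23.7 CPM in IL4c with SPARC and 11.6 to 14.3 CPM in IL4c untreated (0.60 ± 0.16, adjusted p = 0.022, edgeR). In TG it rose by 0.60 ± 0.16 as well (adjusted p = 0.044). Pnpt1, the nuclease of the mitochondrial degradosome, rose in IL4c by 0.53 ± 0.15 (adjusted p = 0.023); in TG the value was 0.39 ± 0.15 (adjusted p = 0.12). Fastk and Rexo2, an RNA-binding protein and an oligoribonuclease of the matrix, rose in both, and Dhx30, an RNA helicase, in IL4c. Lrpprc (0.02 ± 0.15 in IL4c, adjusted p = 0.95), Supv3l1, the degradosome helicase (adjusted p of 1.00 in IL4c and 0.97 in TG), and Mtpap, the poly(A) polymerase (−0.18 ± 0.07, adjusted p = 0.067 in IL4c), did not pass.

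Nuclear partners of the mitochondrial products were mostly higher where they passed. Beside the counts below, 15.1% of all genes rose and 12.7% fell in IL4c, and 6.73% rose and 4.52% fell in TG. Of 73 mitochondrial ribosomal protein genes, 25 rose and 1 fell in IL4c and 8 rose in TG; Mrpl45 had 39.2, 42.9 and 43.9 CPM in IL4c with SPARC and 21.3, 22.8 and 25.7 CPM in IL4c untreated (0.85 ± 0.10, adjusted p = 0.00040, edgeR). Mrpl55 rose by 0.68 ± 0.095 in IL4c and by 0.51 ± 0.095 in TG, and the one that fell was Mrps9. Of 36 nuclear complex I genes, 11 rose and 1 fell in IL4c and 10 rose in TG, among them Ndufa11 (0.60 ± 0.11, adjusted p = 0.0034 in IL4c, and 0.64 ± 0.11, adjusted p = 0.0068 in TG), Ndufa5 (0.60 ± 0.099 in IL4c) and Ndufv3 (0.68 ± 0.11 in TG). The one that fell was Ndufs8, named, like Mrps9, after the values were seen. Complex III had 1 of 9 higher in each injection, Uqcrq in both; next by p came Cyc1 in IL4c (adjusted p = 0.0513) and Uqcr10 in TG (adjusted p = 0.0911), neither past the threshold in edgeR. Complex IV had 1 of 10 higher in IL4c, Cox7c, and 2 in TG, Cox7a2 and Cox8a. Complex V had 0 of 15 in IL4c, where Atp5j (adjusted p = 0.0549) and Atp5e (adjusted p = 0.158) came nearest in edgeR, and 1 in TG, Atp5j, with Atp5d next (adjusted p = 0.0782). With the block more passed, against 22.8% of all genes higher and 22.4% lower in IL4c and 14.3% and 13.1% in TG: 37 ribosomal protein genes were higher in IL4c and 19 in TG, 16 and 22 of complex I, 4 and 5 of complex III in IL4c and TG, 5 and 9 of complex IV, and 3 and 11 of complex V, with 1 ribosomal protein gene, 1 of complex I and 2 of complex III lower in IL4c. The median fitted value in IL4c, without the block, was 0.23 for complex I, 0.17 for III, 0.19 for IV and 0.13 for V, against −2.60 for the 13 mitochondrial mRNAs with copies added. Among 15 regulators of mitochondrial biogenesis, Myc was lower in both injections, at −0.68 ± 0.16 in IL4c (adjusted p = 0.012, edgeR) and −0.88 ± 0.16 in TG (adjusted p = 0.0091), and Nfe2l2 and Gabpa fell in IL4c. Ppard in IL4c (adjusted p = 0.0556) and Gabpa, Nrf1 and Sirt1 in TG (adjusted p of 0.0737, 0.171 and 0.234) came next in edgeR. With the block 5 fell in IL4c, and 4 fell and 1 rose in TG.

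**Figure D5:**
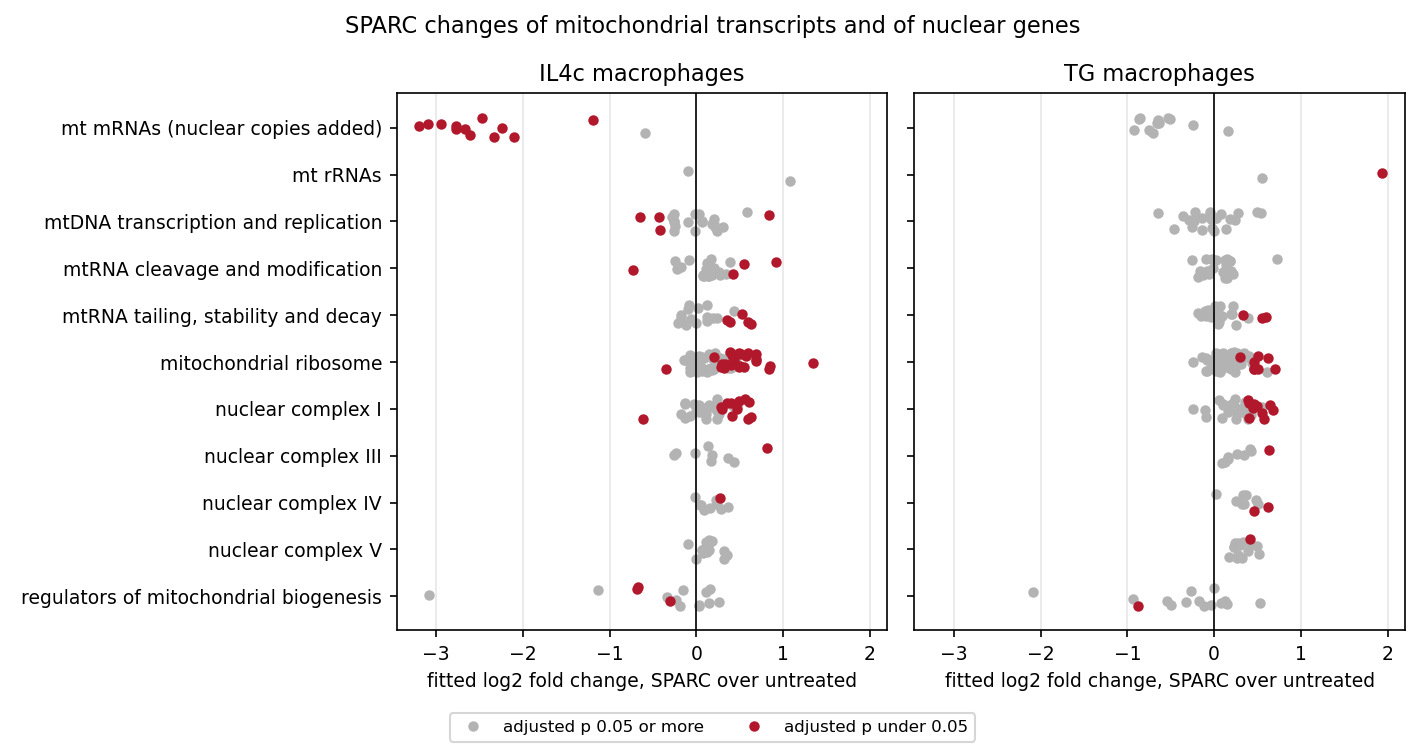
Fitted log2 fold changes, SPARC over untreated, in IL4c (left) and TG (right), 1 dot per gene, for mitochondrial mRNAs and rRNAs with copies added and for lists of nuclear genes; vertical scatter within a row has no meaning. Red dots have an adjusted p under 0.05 by edgeR. In IL4c the mitochondrial mRNAs lie between −3.20 and −0.59, to the left of nearly all nuclear genes shown.

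Marker sums differed with SPARC in IL4c as well. Beside the counts below, 15.1% of all genes rose and 12.7% fell in IL4c in the edgeR fit, and 22.8% and 22.4% with the block. In TG 4.52% of all genes fell without the block and 13.1% with it. The macrophage sum was lower in every SPARC library than in any untreated one, but of its 10 genes 3 fell and 1 rose, with a median of −0.045 on the log2 scale. The 12 B cell markers summed to 179, 134 and 79.7 CPM with SPARC and 395, 271 and 157 CPM untreated, lower in every pair; 1 fell in the edgeR fit and 12 with the block, and in TG 0 fell and 9 with the block. In IL4c the 10 neutrophil markers summed to 26.9 to 41.4 CPM with SPARC and 7.0 to 9.9 CPM untreated, and the 10 mesothelial and stromal markers to 61.7 to 113 CPM with SPARC and 7.3 to 19.2 CPM untreated. Of the neutrophil genes 2 were tested and both rose, and of the mesothelial and stromal genes 7 were tested and 1 rose, with a median of 0.25; with the block 1 rose and 1 fell. In TG the neutrophil markers summed to 28.0 to 53.2 CPM with SPARC and 7.1 to 11.7 CPM untreated. T and NK cell markers stayed at most 1.9 CPM and mast cell and eosinophil markers at most 17.9 CPM in IL4c. None of these cell type lists had a gene at 0 in every library. The part of these differences in the mitochondrial results was not tested.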

How the data were processed

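The authors deposited 1 matrix of estimated counts and 1 of FPKM per gene; CASAVA, bcl2fastq 1.8.4, STAR and RSEM are named per the submitters' processing notes. Build, annotation and strandedness: not given in the sources used here. The deposited expected counts (7.97% not whole) were rounded and tested with edgeR 4.0.16 (R 4.3.3; TMM, filterByExpr with a minimum count of 10, robust quasi-likelihood fit over all 12 libraries, Benjamini-Hochberg adjustment, threshold 0.05); standard errors are the log2 fold change divided by the root of F. FPKM values made by the authors served an alternative in limma 3.58.1 on log2(FPKM + pseudocount), and DESeq2 1.42.0 was another. Transcript sequences and copies came from GENCODE M21 with blastn 2.17.0; all 37 gene identifiers matched. The fit without the block was run for the IL4c comparison on simulated counts, with an outcome not given here. Those counts held no pairing, no difference between injections and no division of reads with copies. The block, interaction and copies-added fits were thus not tested in this way.

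Named are all members with counts; from each list on mitochondrial gene expression or biogenesis the 4 genes with the smallest p in each SPARC comparison and 7 central ones; from the ribosome and complex lists the 2 with the smallest p; and copies with 10 counts in 3 libraries. The members and lists were chosen with earlier results of these data known. The labels share numbers between wells but do not say that a number marks a mouse or day. Within an injection the deviations of same-numbered libraries correlated at 0.342 to 0.735 in all 6 pairs. Differently numbered libraries of an injection ran from −0.659 to 0.507, so the ranges overlapped. The TG wells numbered 2 and 3 correlated at 0.448 and 0.507 across numbers. The block was accepted within an injection from these same data. Across injections same-numbered libraries ran from −0.178 to 0.250, and the fits without the block assumed no pairing. Fits with the block that compare IL4c with TG did join same-numbered libraries across injections. Neither the labels nor these correlations back that pairing. Fits that join the added copies with the block, another scaling or a left-out library were chosen after seeing the data. Libraries of 31501941 to 42288785 counts put 3 counts at 0.0707 to 0.0974 CPM.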

Additional observations from a re-analysis of the deposited data

Results flagged for a closer look

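The SPARC response of 5 mRNAs differed between the injections when the replicate number was a block in edgeR's quasi-likelihood test; the interaction, IL4c minus TG on the log2 scale, was −1.106 for mt-Co1, −2.064 for mt-Atp8, −1.991 for mt-Nd4, −2.03 for mt-Nd5 and −2.14 for mt-Cytb. Without the block none of the 5 passed. In the pairs, mt-Co1 ran from −1.48 to −1.04 in IL4c and from −0.41 to −0.038 in TG, and the ranges of the other 4 did not overlap between the injections either.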

How the results depend on the processing

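The replicate block raised the number of members passing in TG to 5 (main 1), and the interaction to 5 (main 0); with copies added as well these were 8 and 8, and the IL4c over TG comparison with SPARC had 11 (main 7). In untreated cells the block left 1 of 2, as did total-count scaling, no filter on low counts, the FPKM settings, and total-count scaling or the block with copies added. In TG, DESeq2 gave 2, FPKM without a filter 0, the compared groups alone 0, and the fit without both wells numbered 1 gave 2, with or without copies. With SPARC, IL4c over TG gave 11 by DESeq2 and 0 in the compared groups alone. The interaction gave 2 by DESeq2, and the shares of all genes that passed by DESeq2 are not given here. Leaving out a library gave 0 to 2 members in TG, 1 to 2 between untreated cells and 1 to 11 with SPARC (1 to 12 with copies). The number of IL4c calls stayed within 1.5 times of 11 under every setting run, but single calls did not: with a library left out, mt-Co3 passed in 2 of 12 fits and mt-Nd4l in 7 as deposited. As deposited, the summed level changed by −1.38 in IL4c and by −1.77 for the mRNAs alone. In TG the deposited sum changed by −0.377, −0.548 in FPKM and −0.506 for the mRNAs alone. mt-Co2 in TG turned from 0.53 to −0.56 with copies and block. Of 3135 values of single members under alternatives, 2905 stayed on their side of the threshold, 106 lost a call and 1 reversed; 115 of the 2905 differed in sign, passing in neither fit. Total-count scaling moved the median gene between untreated cells to −0.16. The cause of these shifts was not tested.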
